A study of Mus musculus with 6 samples.

Results

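Galectins are small lectins that bind galactose-containing sugars on glycoproteins and glycolipids, and 5 genes of this family and its partners were followed here in murine CD4 cells. The members were *Lgals1*, *Lgals3*, *Lgals8* and *Lgals9*, which encode galectins, and *Lgals3bp*, which encodes a secreted glycoprotein that galectins bind. They were chosen by gene name from the deposited counts of all 6 libraries, with results of the same comparison in view, so every value below is a description of genes already known from these libraries and supports no claim of its own. No threshold was set for membership. Among 12 genes of the family and its partners looked up, *Lgals8* was the member with the fewest counts, from 214 to 850 per library. Of those outside the members, *Lgalsl*, which encodes a galectin-related protein, had the most counts, from 266 to 344. The 5 members are among 56748 genes in the table and among the 14936 that passed the filter on low counts.

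Naïve CD4 cells from spleen and lymph nodes of wild-type C57BL/6J mice, 6 to 10 weeks old, were enriched by negative selection, which depletes other cell types, and cultured for 3 days with plate-bound anti-CD3, soluble anti-CD28, IL-2, TGF-β, anti-IFNγ and anti-IL-4, the conditions that polarize such cells toward Tregs. Antisense oligonucleotides (ASOs), synthetic strands built to pair with a given RNA, were added at 10 μM from the start of culture. They were scrambled in 3 libraries and directed at *Pgam* isoforms, transcripts for a glycolytic enzyme, in the other 3. RNA came from cells not sorted after culture, and total counts ran from 15860476 to 18032805 per library. The comparison asks how galectin transcripts differ between cultures given the 2 ASOs. The study calls the libraries of a label biological replicates without saying whether they came from separate animals, so p-values measure the spread between these libraries, which may be technical in part.

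Galectins are made in the cytosol without a signal peptide and leave the cell by an unconventional route, after which they crosslink glycoproteins such as CD44, CD45 and CD7 at the T cell surface. How strongly they bind depends on the sugars those glycoproteins carry, since branched N-glycans and extended O-glycans present more galactose, and sialic acid can cap it. Inside the cell, galectin-3, galectin-8 and galectin-9 bind glycans exposed on damaged vesicles, and galectin-1 is abundant in activated T cells and Tregs.

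Promoter sequence is shown for the 3 members with an adjusted p under 0.05 and an entry in the RefSeq promoter table for GRCm38.p6, to let the stretches before their start sites be compared. Of the 5 members, 4 had an entry, and *Lgals1* had none. Each stretch lies within the 250 bases before the RefSeq start site, on the strand of the gene, and leaves out bases that GENCODE M21 places in an exon. The stretches of *Lgals3bp* (chr11:118402093-118402209, minus strand) and *Lgals9* (chr11:78984947-78985174, minus strand) lie upstream of every annotated exon of their genes, and that of *Lgals3* (chr14:47373610-47373812, plus strand) lies in an intron of the gene. Capitals mark a motif match.
*Lgals3*: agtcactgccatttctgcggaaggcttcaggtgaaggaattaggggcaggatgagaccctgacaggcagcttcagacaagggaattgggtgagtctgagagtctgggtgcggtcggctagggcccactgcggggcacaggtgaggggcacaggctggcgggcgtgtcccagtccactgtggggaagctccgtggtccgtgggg
*Lgals3bp*: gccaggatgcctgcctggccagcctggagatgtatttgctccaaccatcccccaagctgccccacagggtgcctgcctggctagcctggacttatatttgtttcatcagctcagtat
*Lgals9*: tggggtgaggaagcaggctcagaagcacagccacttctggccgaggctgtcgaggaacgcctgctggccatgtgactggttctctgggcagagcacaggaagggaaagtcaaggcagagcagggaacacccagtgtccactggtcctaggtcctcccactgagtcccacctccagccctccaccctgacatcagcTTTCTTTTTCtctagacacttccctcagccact

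In the whole 250 bases, 6 motifs were searched on both strands. They were the core of the interferon-stimulated response element (ISRE; GAAA, any 2 bases, GAAA), the gamma-activated sequence (TTCNNNGAA), the GC box (GGGCGG), the TATA box (TATAAA), the E-box (CACGTG) and the AP-1 motif (TGACTCA). *Lgals9* held 1 ISRE core, from 55 to 46 bases before the start site, a motif found in 2.98% of 32851 promoters of the same length. *Lgals3* held 1 GC box, from 7 to 2 bases before the start site and so outside the stretch shown, a motif found in 32.74% of promoters. *Lgals3bp* and *Lgals8* held none of the 6. The 250 bases of *Lgals8* (chr13:12461739-12461988, minus strand) lie within the annotated gene, in an intron. They thus precede the RefSeq start site and not the start of the annotated gene. The shares of promoters with the motifs not matched in any member were 7.02% for the gamma-activated sequence, 12.37% for the TATA box, 6.02% for the E-box and 4.46% for AP-1. A match is a run of letters only, and binding was not measured.

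The targeted transcripts were examined before the members, with values listed here and below in the order of replicates 1, 2 and 3. *Pgam1* was counted 10655, 8847 and 11414 times under the scrambled ASO label and 10601, 10299 and 11949 times under the *Pgam* ASO label. Its log2 fold change, of the libraries labelled *Pgam* ASO over those labelled scrambled ASO, was 0.18 ± 0.13 (standard error, SE, adjusted p = 0.331 in edgeR). With 1 library left out, this value ran from 0.05 to 0.33, and its edgeR adjusted p from 0.0528 to 0.793. Of the 31-base stretches of *Pgam1* transcripts, 37.12% also occur elsewhere, mostly in the pseudogene *Pgam1-ps2*. *Pgam2* was counted 93, 125 and 46 times against 48, 42 and 44 times, with a log2 fold change of -0.84 ± 0.31 (SE, adjusted p = 0.0854 in edgeR). That adjusted p was 0.0144 without scrambled ASO replicate 3 and 0.0292 with no filter on low counts. It was over 0.05 in the other 5 omissions of a library, up to 0.286 without scrambled ASO replicate 2, and the log2 fold change ran from -1.11 to -0.56 over the 6 omissions. Since the test called neither targeted transcript, groups are named by their labels throughout; PGAM protein was not analysed here.

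Of the 5 members, 4 were called, as were 17.2% of all genes tested; called means an edgeR quasi-likelihood p under 0.05 after Benjamini-Hochberg adjustment over the tested genes. *Lgals1*, *Lgals3bp* and *Lgals9* rose, so 3 members were called higher, as were 8.03% of tested genes. *Lgals3* fell, so 1 member was called lower, as were 9.15% of tested genes. Normalized values of all 5 members separated the groups without overlap, as did those of 39.5% of tested genes. With 1 library left out, 2 to 5 members and 391 to 3484 of all genes were called, fewest without *Pgam* ASO replicate 2 (2 members, 391 genes) and scrambled ASO replicate 1 (2 members, 620 genes), and most without scrambled ASO replicate 3 (5 members, 3484 genes) and *Pgam* ASO replicate 3 (5 members, 3319 genes). Without *Pgam* ASO replicate 1 and scrambled ASO replicate 2, 871 and 1256 genes were called. Since the members were picked with this comparison known, nothing is read from these shares.

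**Figure D1:**
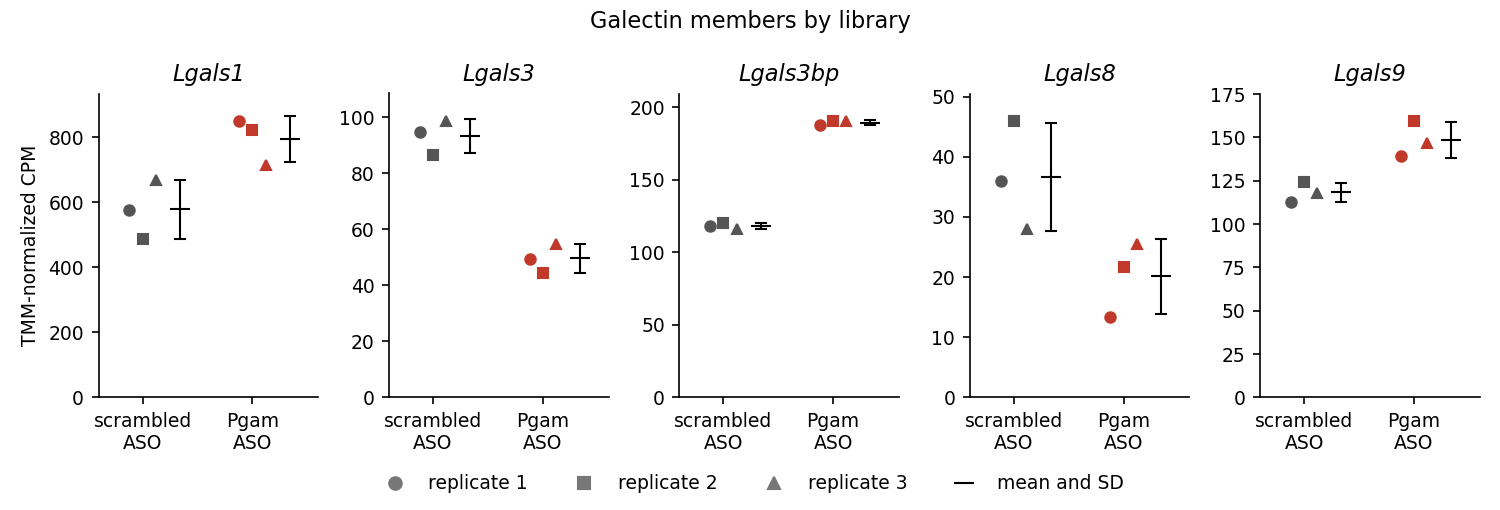
Normalized expression (TMM-normalized CPM, linear axis from 0) of the 5 members in each library, with a marker shape for each replicate and a bar for the mean and SD of 3 libraries. In every panel the libraries labelled *Pgam* ASO lie wholly above or wholly below those labelled scrambled ASO, and in *Lgals8* the nearest libraries of the groups lie at 25.4 CPM and 28.1 CPM.

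*Lgals1* (ENSMUSG00000068220, chr15:78926725-78930465) encodes galectin-1, a galectin with a single sugar-binding domain that works as a dimer. Its counts were 10273, 9013 and 10808 under the scrambled ASO label and 13684, 12800 and 12078 under the *Pgam* ASO label. In TMM-normalized CPM, which is a library's counts scaled to a common total, these were 578, 487 and 670 against 850, 821 and 715. The lowest library labelled *Pgam* ASO and the highest labelled scrambled ASO, both replicate 3, were closer to each other than to any library of their own group. Over the tested genes, too, these were the closest libraries of different labels. Their counts differed by a chi-square per degree of freedom of 17.0, against up to 27.11 within a label. Mean expression was 578 ± 91.4 CPM (SD, n = 3) under the scrambled ASO label and 795 ± 71.3 CPM (SD, n = 3) under the *Pgam* ASO label, a log2 fold change of 0.46 (standard error 0.12, 95% interval 0.19 to 0.73, edgeR adjusted p = 0.0296). Whether more cells made the transcript or each cell held more of it cannot be told apart in bulk RNA. The call was lost when scrambled ASO replicate 1 or 2 was left out (adjusted p = 0.0993 and 0.0526 in edgeR), and likewise *Pgam* ASO replicate 1 or 2 (0.1 and 0.125), while the log2 fold change stayed between 0.35 and 0.58 over all 6 omissions.

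*Lgals3* (ENSMUSG00000050335, chr14:47367751-47386160) encodes galectin-3, whose sugar-binding domain carries a long tail through which the protein assembles into larger complexes. It was counted 1684, 1604 and 1593 times under the scrambled ASO label and 799, 694 and 929 times under the *Pgam* ASO label. The corresponding values were 94.8, 86.6 and 98.7 CPM against 49.6, 44.5 and 55.0 CPM. The highest library labelled *Pgam* ASO was thus well below the lowest labelled scrambled ASO, and replicates within each group lay close together. *Lgals3* fell from a mean of 93.4 ± 6.16 CPM (SD, n = 3) to one of 49.7 ± 5.22 CPM (SD, n = 3). Its log2 fold change was -0.91 (standard error 0.10, 95% interval -1.13 to -0.69, edgeR adjusted p = 0.000945), the lowest of the 5 members under the main setting. Without scrambled ASO replicate 3, or without *Pgam* ASO replicate 2 or 3, that of *Lgals8* was lower.

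*Lgals3bp* (ENSMUSG00000033880, chr11:118392751-118402092) encodes the galectin-3-binding protein, a heavily glycosylated secreted protein that is known to be induced by interferon. Counts were 2105, 2233 and 1877 under the scrambled ASO label and 3021, 2969 and 3218 under the *Pgam* ASO label. After scaling these became 118, 121 and 116 CPM against 188, 190.5 and 190.4 CPM. Spread within a group was the smallest of the 5 members relative to the mean, and the gap between groups was many times wider than that spread. The means of 118 ± 2.15 CPM (SD, n = 3) and 190 ± 1.63 CPM (SD, n = 3) gave a log2 fold change of 0.68 (standard error 0.07, 95% interval 0.51 to 0.84, edgeR adjusted p = 0.000884). *Lgals3* and *Lgals3bp* moved in opposite directions, and both stayed under an adjusted p of 0.05 with any single library left out, with a highest edgeR adjusted p of 0.0133 for *Lgals3* and 0.0144 for *Lgals3bp*.

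*Lgals9* (ENSMUSG00000001123, chr11:78962974-78984946) encodes galectin-9, which joins a pair of different sugar-binding domains by a linker and is a reported ligand of TIM-3. It was counted 2009, 2301 and 1901 times under the scrambled ASO label and 2240, 2485 and 2485 times under the *Pgam* ASO label. In CPM these were 113, 124 and 118 against 139, 159 and 147. Raw counts of the groups overlapped, since scrambled ASO replicate 2 was the most deeply sequenced library, while scaled values did not. The log2 fold change was 0.33 (standard error 0.09, 95% interval 0.14 to 0.52, edgeR adjusted p = 0.0295), from means of 118 ± 5.64 CPM (SD, n = 3) and 149 ± 10.2 CPM (SD, n = 3). This call was lost without scrambled ASO replicate 1 (adjusted p = 0.132 in edgeR) and without *Pgam* ASO replicate 2 (adjusted p = 0.143 in edgeR).

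*Lgals8* (ENSMUSG00000057554, chr13:12439415-12464944) encodes galectin-8, also a galectin with a pair of joined sugar-binding domains, which marks damaged endosomes for autophagy. It was counted 639, 850 and 453 times under the scrambled ASO label and 214, 337 and 430 times under the *Pgam* ASO label. The values were 36.0, 45.9 and 28.1 CPM against 13.3, 21.6 and 25.4 CPM. Libraries within a group were farther apart, relative to the mean, than for any other member. Replicate 3 of each group lay nearest the other group, as it did over the tested genes as a whole. Means of 36.6 ± 8.94 CPM (SD, n = 3) and 20.1 ± 6.21 CPM (SD, n = 3) gave a log2 fold change of -0.87 (standard error 0.25, 95% interval -1.45 to -0.28), with an edgeR adjusted p of 0.0505 that did not pass the threshold. The adjusted p passed it without scrambled ASO replicate 3 (0.0257 in edgeR, log2 fold change -1.02) and without *Pgam* ASO replicate 3 (0.0217 in edgeR, log2 fold change -1.06), and in 6 of the 7 other tools, scalings and filters tried.

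Kallisto divides reads between transcripts that share sequence, so stretches of 31 bases shared with other genes were counted. *Lgals1*, *Lgals3*, *Lgals3bp* and *Lgals9* share 0.0% of theirs, and *Lgals8* shares 5.53%, of which 3.35% is with *Heatr1*, a ribosome biogenesis gene that overlaps it on the opposite strand. *Heatr1* was counted 2205, 1790 and 1885 times under the scrambled ASO label and 2855, 2526 and 2172 times under the *Pgam* ASO label, with a log2 fold change of 0.47 ± 0.13 (SE, adjusted p = 0.0367 in edgeR). It was looked up for its position, and no strand setting is given in the sources used here, so reads from the overlap of *Lgals8* and *Heatr1* cannot be told apart.

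**Figure D2:**
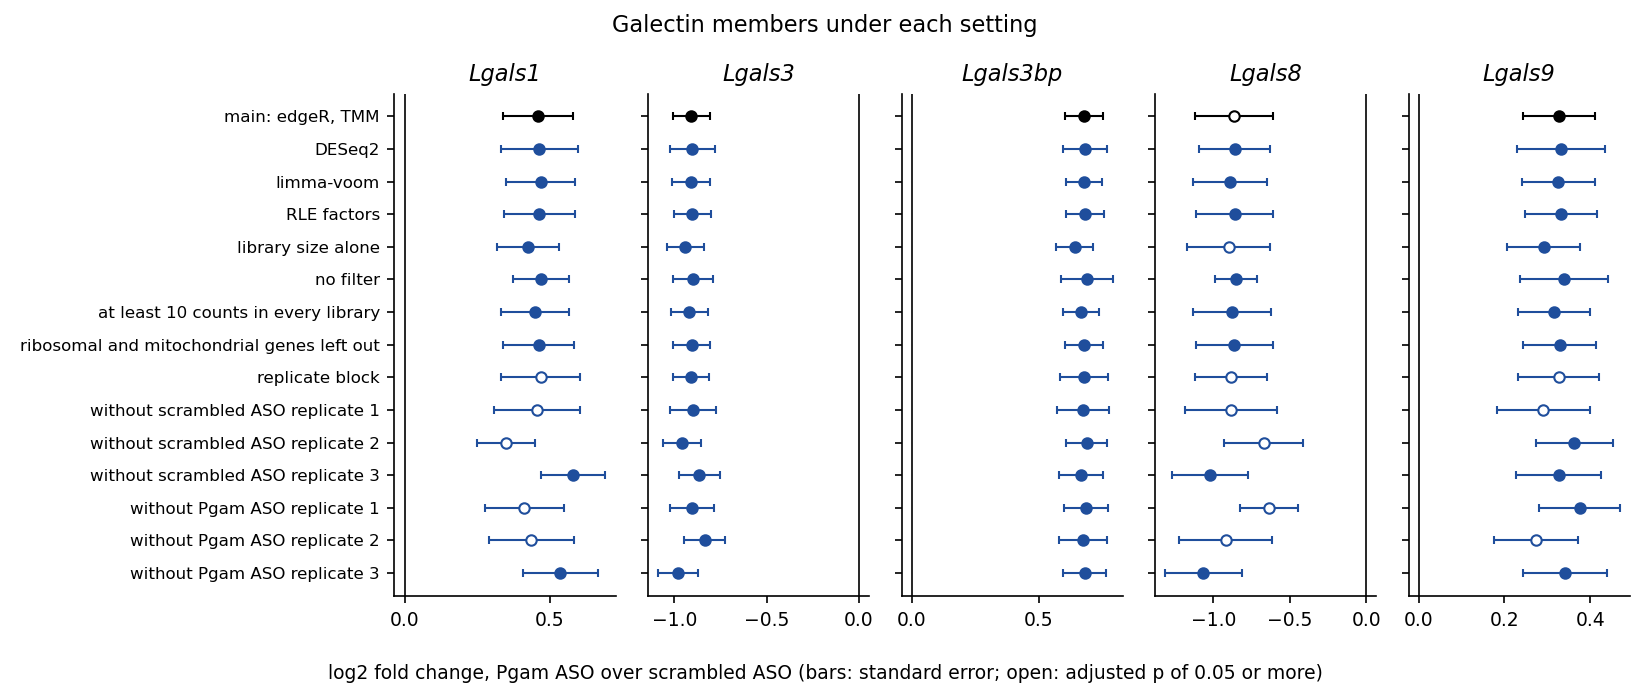
Log2 fold change of each member (horizontal axis, libraries labelled *Pgam* ASO over scrambled ASO, with standard error bars) under the main setting and 14 alternatives (1 line each), with open circles where the adjusted p was 0.05 or more. No point crosses 0; *Lgals3* and *Lgals3bp* are filled in each line, and *Lgals1*, *Lgals8* and *Lgals9* change between filled and open.

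Levels of different galectins were compared per kilobase of transcript, taking the median length of each gene's protein-coding transcripts. In the libraries labelled scrambled ASO, *Lgals1* stood highest at 723 ± 114 CPM per kilobase (SD, n = 3). *Lgals3bp* followed at 160 ± 2.90, *Lgals3* at 109 ± 7.17, *Lgals9* at 77.9 ± 3.71 and *Lgals8* at 14.1 ± 3.44 CPM per kilobase (SD, n = 3). In those labelled *Pgam* ASO, *Lgals1* was at 994 ± 89.1, *Lgals3bp* at 255 ± 2.20, *Lgals9* at 97.7 ± 6.74, *Lgals3* at 57.9 ± 6.08 and *Lgals8* at 7.75 ± 2.39 CPM per kilobase (SD, n = 3). *Lgals3* and *Lgals9* therefore exchanged places, and in neither group did the range of a member over its libraries overlap that of its neighbour in the order. Part of the order rests on the length chosen. *Lgals3bp* has transcripts of 742 bases at the median and 2330 at the longest, and *Lgals3* of 859 and 1419. With the longest coding transcript, *Lgals3bp* was at 50.8 and 81.3 CPM per kilobase in the groups labelled scrambled ASO and *Pgam* ASO, and *Lgals3* at 65.8 and 35.0. *Lgals9* then came second in both groups, *Lgals3bp* and *Lgals3* were the pair that exchanged places, and *Lgals1* remained first and *Lgals8* last.

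**Figure D3:**
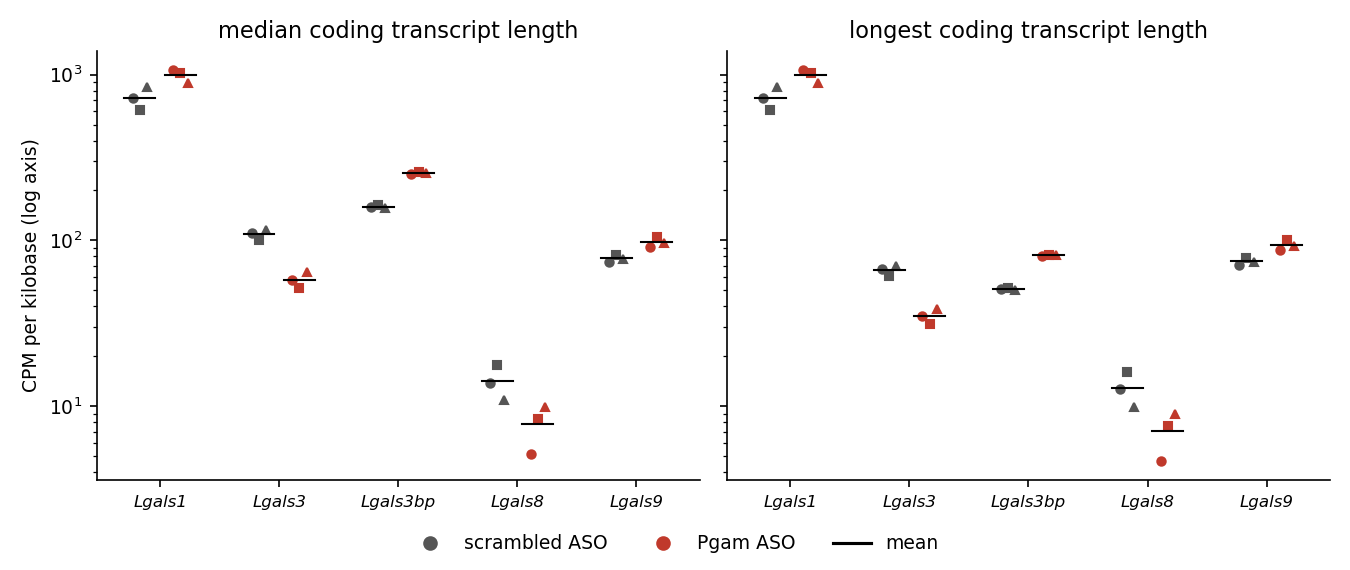
Level of each member in CPM per kilobase (log axis) by library, with the median coding transcript length on the left and the longest on the right, and a line at the mean of 3 libraries. *Lgals1* lies highest and *Lgals8* lowest in both panels, and *Lgals3bp* drops from 160 to 50.8 CPM per kilobase under the scrambled ASO label between the panels.

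Of 7 galectin genes outside the members, 6 were in the table and 4 were tested. *Lgals4*, a galectin of the gut epithelium, was counted 191, 220 and 167 times under the scrambled ASO label and 116, 108 and 133 times under the *Pgam* ASO label. It fell, with a log2 fold change of -0.58 ± 0.16 (SE, adjusted p = 0.0319 in edgeR), without overlap between the groups. Without replicate 1 or 2 of either label it was not called, with an edgeR adjusted p of up to 0.132, reached without *Pgam* ASO replicate 2. *Lgals7* had a log2 fold change of 0.45 (adjusted p = 0.186 in edgeR), *Lgalsl* 0.01 (adjusted p = 0.954 in edgeR), and *Grifin*, which encodes a lens galectin, -0.56 (adjusted p = 0.522 in edgeR). These 3 were counted 115 to 229, 266 to 344 and 3 to 38 times per library, and their groups overlapped. *Lgals2* was at 0 in all 6 libraries, which allows up to 3 counts in each, or at most 0.189 CPM. *Lgals12* had 1, 2 and 2 counts under the scrambled ASO label and 0 in the others, too few for a fold. *Lgals6* was not analysed here.

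**Figure D4:**
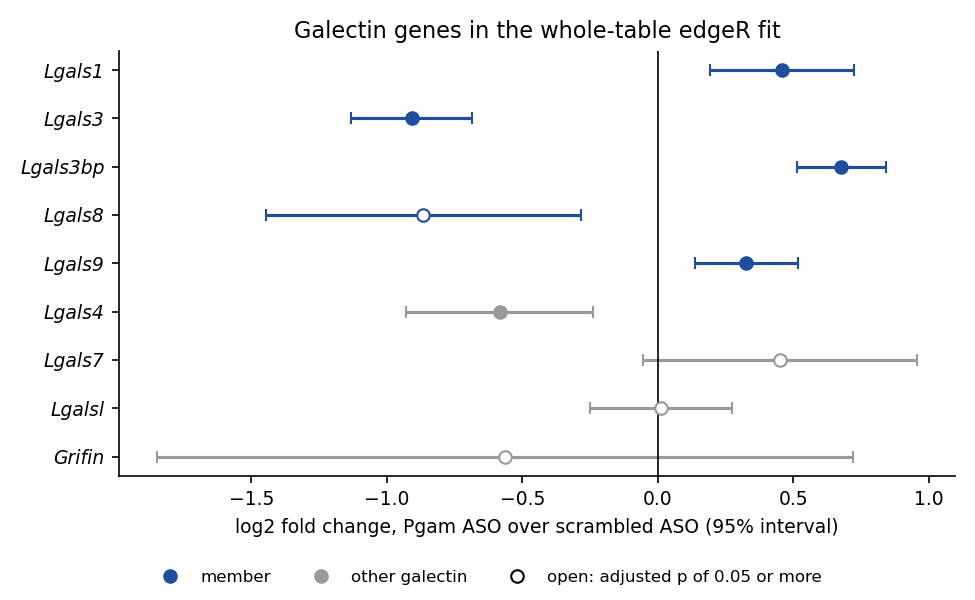
Log2 fold change with its 95% interval (horizontal axis) for the 9 genes of the galectin family and its partners that were tested. Members are in blue and others in grey, filled where the adjusted p was under 0.05. *Lgals3bp*, *Lgals1* and *Lgals9* lie to the right of 0 and *Lgals3*, *Lgals8* and *Lgals4* to the left, and the interval of *Grifin* is the widest, from -1.85 to 0.72.

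Patterns across the 6 libraries were compared by Pearson's r of log2 CPM, which here mostly follows the difference between the groups and is given as a description. Between members, r was -0.98 for *Lgals3* and *Lgals3bp* and -0.95 for *Lgals3* and *Lgals9*, and 0.93 for *Lgals3bp* and *Lgals9*. *Lgals1* and *Lgals8* were likewise opposed, at -0.94, both with their 2 replicates numbered 3 nearest each other, a pattern not particular to them. The other 6 pairs were weaker, at 0.81 for *Lgals1* and *Lgals3bp*, -0.80 for *Lgals1* and *Lgals3*, -0.76 for *Lgals3bp* and *Lgals8*, 0.75 for *Lgals3* and *Lgals8*, 0.70 for *Lgals1* and *Lgals9* and -0.58 for *Lgals8* and *Lgals9*. Among 9568 genes with a mean log2 CPM of at least 3, the 3 most like *Lgals1* were *Rpn2*, *Emd* and *Atp5b*, at 0.999, 0.999 and 0.998. *Ston1*, *Bcl10* and *Cbx2* were most like *Lgals3*, at 0.998, 0.996 and 0.991. *Tm7sf2*, *Dennd5a* and *Exoc6b* were most like *Lgals3bp*, at 0.994, 0.993 and 0.993. For *Lgals8* they were *Pisd-ps1*, *Crebrf* and *Brox*, at 0.998, 0.998 and 0.997, and for *Lgals9* *Rundc1*, *Scfd2* and *Cd226*, at 0.990, 0.989 and 0.987. As the highest of 9568 values over 6 libraries, these r are high by selection. The size of change differed widely among the genes, since r does not depend on it: *Bcl10* had a log2 fold change of -0.19 beside -0.91 for *Lgals3*. *Emd*, *Bcl10*, *Crebrf*, *Brox* and *Rundc1* were not called (adjusted p = 0.150, 0.132, 0.0536, 0.0938 and 0.132 in edgeR). Part of the 31-base stretches is shared with other genes in *Emd* (18.9%), *Tm7sf2* (13.28%), *Pisd-ps1* (27.71%) and *Brox* (26.02%). These are shares of stretches and not of reads, so they do not measure how uncertain the counts are.

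The genes around the galectins were taken from lists of counter-receptors, sugar-modifying enzymes, vesicle partners, interferon-stimulated genes and Treg genes. Medians of log2 fold changes are given for each list, and over the 14936 genes tested the median was -0.01, with 8.03% called higher and 9.15% lower. Of 20 glycoproteins of the T cell surface known as galectin counter-receptors, 20 were tested, 1 was called higher and 3 lower, with a median of -0.08. *Cd44*, the hyaluronan receptor, rose from 200 ± 9.63 to 260 ± 37.1 CPM (SD, n = 3), which is a log2 fold change of 0.38 (adjusted p = 0.039 in edgeR). *Selplg*, which encodes the selectin ligand PSGL-1, fell from 443 ± 15.1 to 313 ± 54.7 CPM (SD, n = 3), which is a log2 fold change of -0.50 (adjusted p = 0.0213 in edgeR). *Nrp1*, a coreceptor on Tregs, had a log2 fold change of -0.31 (adjusted p = 0.0241 in edgeR), and *Cd7*, through which galectin-1 acts on T cells, one of -3.04 (adjusted p = 0.0237 in edgeR) from counts of 30, 36 and 17 against 0, 1 and 8. None of these 4 was called without scrambled ASO replicate 1 or without *Pgam* ASO replicate 1 or 2, nor *Cd44* and *Cd7* without scrambled ASO replicate 2 and *Cd44* without scrambled ASO replicate 3. Their edgeR adjusted p rose to 0.135 for *Cd44*, 0.11 for *Selplg* and 0.114 for both *Nrp1* and *Cd7*. The log2 fold change of *Cd7* was -5.33 without *Pgam* ASO replicate 3, -3.77 in limma-voom and -2.48 without *Pgam* ASO replicate 1.

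Among 14 enzymes of N-glycan branching and galactose extension, 2 were called higher and 0 lower, with a median log2 fold change of 0.12. They were *Mgat2*, an enzyme that starts the second antenna of complex N-glycans, at 0.35 (adjusted p = 0.0306 in edgeR), and the galactosyltransferase gene *B4galt4* at 0.77 (adjusted p = 0.0189 in edgeR). Without *Pgam* ASO replicate 2 the edgeR adjusted p was 0.117 for *Mgat2* and 0.105 for *B4galt4*, and both also lost the call without scrambled ASO replicate 1, as *Mgat2* did without scrambled ASO replicate 2 or *Pgam* ASO replicate 1. Of 8 core enzymes of O-glycans, 0 were called higher and 2 lower, with a median of -0.28. Both called genes encode core 2 branching enzymes, on whose product galactose chains can be extended. *Gcnt1* was counted 80, 70 and 40 times under the scrambled ASO label and 12, 10 and 9 times under the *Pgam* ASO label, a log2 fold change of -2.48 ± 0.35 (SE, adjusted p = 0.00274 in edgeR). *Gcnt3*, at 22, 27 and 21 counts against 2, 1 and 4, had a log2 fold change of -3.15 ± 0.51 (SE, adjusted p = 0.00567 in edgeR). Neither gene's groups overlapped.

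Of 9 sialyltransferases, most of which cap galactose while *St6galnac4* and *St6galnac6* act on other sugars, 8 were tested, with 1 called higher, 2 lower and a median log2 fold change of 0.07. *St3gal2* rose, at 0.66 (adjusted p = 0.00592 in edgeR), while *St3gal4* and *St3gal6* fell, at -0.38 (adjusted p = 0.0428 in edgeR) and -1.52 (adjusted p = 0.0453 in edgeR). *St3gal4* and *St3gal6* share 12.07% and 24.82% of their 31-base stretches with other genes. *St3gal4* was called only without scrambled ASO replicate 2 or *Pgam* ASO replicate 3 among the 6 omissions, and *St3gal6* only without scrambled ASO replicate 3, with edgeR adjusted p values of up to 0.158 and 0.181, and DESeq2 and limma-voom did not call *St3gal6* (adjusted p = 0.0659 and 0.0536). Of 13 genes that supply hexosamines and UDP-sugars, 2 were called higher and 1 lower, with a median of 0.22. *Pgm3*, an enzyme of UDP-GlcNAc synthesis, and *Ugp2*, which makes UDP-glucose, rose at 0.56 (adjusted p = 0.0191 in edgeR) and 0.37 (adjusted p = 0.027 in edgeR), and *Galt*, of galactose breakdown, fell at -0.55 (adjusted p = 0.0436 in edgeR). *Pgm3* and *Galt* share 27.6% and 30.29% of their stretches. All 3 lost the call without scrambled ASO replicate 1 and without *Pgam* ASO replicate 1 or 2, *Ugp2* and *Galt* also without scrambled ASO replicate 2, and *Galt* without *Pgam* ASO replicate 3. The edgeR adjusted p reached 0.0792 for *Pgm3*, 0.125 for *Ugp2* and 0.147 for *Galt*, which limma-voom did not call either (adjusted p = 0.0519).

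Of 17 genes for galectin partners and autophagy proteins that act at damaged vesicles, 16 were tested, with 1 called higher, 5 lower and a median log2 fold change of -0.07. *Trim16*, a ubiquitin ligase that binds galectin-3, rose at 0.48 (adjusted p = 0.0227 in edgeR). *Calcoco1*, *Slc38a9* and *Ulk1*, for an autophagy receptor, a lysosomal amino acid sensor and the kinase that starts autophagy, fell at -1.39 (adjusted p = 0.0306 in edgeR), -1.26 (adjusted p = 0.0247 in edgeR) and -0.59 (adjusted p = 0.0154 in edgeR). *Calcoco1* was counted 949, 1296 and 822 times under the scrambled ASO label and 223, 294 and 566 times under the *Pgam* ASO label. As for *Lgals8* and over the tested genes as a whole, replicate 3 of each group lay nearest the other. All 4 lost the call without scrambled ASO replicate 1 or *Pgam* ASO replicate 2, all but *Calcoco1* without *Pgam* ASO replicate 1, *Trim16* and *Calcoco1* without scrambled ASO replicate 2, and *Calcoco1* without scrambled ASO replicate 3 and with no filter on low counts (adjusted p = 0.114 in edgeR). Over the omissions the edgeR adjusted p reached 0.0912 for *Trim16* and *Ulk1*, 0.102 for *Slc38a9* and 0.134 for *Calcoco1*.

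*Lgals3bp* and *Lgals9* are known interferon targets, and 15 other interferon-stimulated genes were read beside them. Of these, 2 were called higher, 0 lower and 13 not called, 5 had a log2 fold change above 0, and the median was -0.16. *Isg15* was counted 323, 266 and 293 times under the scrambled ASO label and 472, 480 and 486 times under the *Pgam* ASO label, a log2 fold change of 0.81 ± 0.12 (SE, adjusted p = 0.00391 in edgeR). *Bst2*, for the antiviral protein tetherin, was counted 1343, 1042 and 1556 times against 2253, 1893 and 1998 times, a log2 fold change of 0.73 ± 0.17 (SE, adjusted p = 0.0242 in edgeR). *Bst2* was not called without scrambled ASO replicate 1 or *Pgam* ASO replicate 1 or 2, with an edgeR adjusted p of up to 0.0862. *Isg15* shares 13.09% of its stretches with other genes.

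Among 18 Treg-associated genes, 1 was called higher and 5 lower, with a median log2 fold change of -0.13. *Foxp3* was counted 5005, 6862 and 3587 times under the scrambled ASO label and 1444, 1695 and 2212 times under the *Pgam* ASO label, a log2 fold change of -1.41 ± 0.20 (SE, adjusted p = 0.00567 in edgeR), and 26.38% of its stretches are shared, mainly with the overlapping *Flicr*. *Nt5e* and *Entpd1*, for the ectoenzymes CD73 and CD39, fell at -1.35 (adjusted p = 0.00109 in edgeR) and -1.32 (adjusted p = 0.00768 in edgeR). *Il2ra*, for the IL-2 receptor chain CD25, rose at 0.52 (adjusted p = 0.0185 in edgeR), a call lost without scrambled ASO replicate 1 or *Pgam* ASO replicate 1 or 2 (adjusted p of up to 0.0967 in edgeR). *Lgals1*, often counted among genes high in Tregs, thus rose in the libraries where *Foxp3* fell. Of the 25 called genes named from the lists, *Lgals4* among them, 7 stayed under an adjusted p of 0.05 with any single library left out, namely *Gcnt1*, *Gcnt3*, *St3gal2*, *Isg15*, *Foxp3*, *Nt5e* and *Entpd1*. The other 18 lost the call at least once, with highest edgeR adjusted p values from 0.0792 to 0.181.

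**Figure D5:**
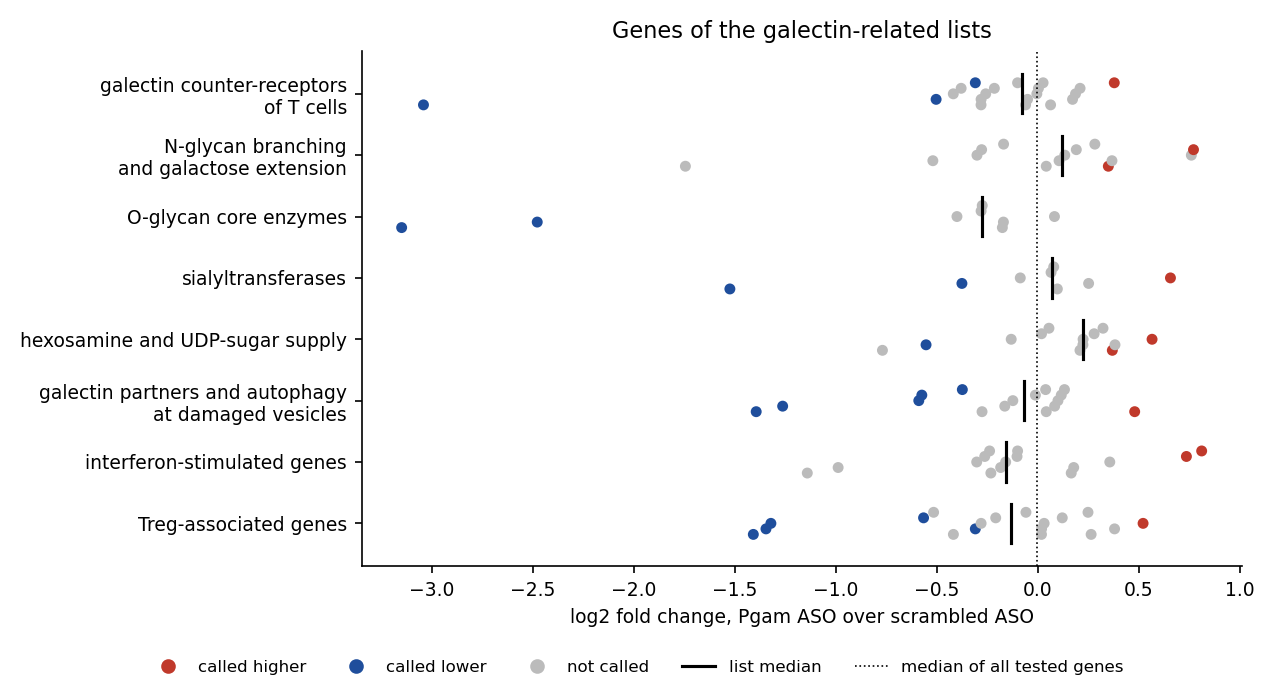
Log2 fold change (horizontal axis) of each tested gene in 8 lists, red where called higher, blue where called lower and grey where not called, with a black bar at the median of the list and a dotted line at the median of all tested genes. List medians run from -0.28 for O-glycan enzymes to 0.22 for sugar supply, and the points farthest left are *Gcnt3* and *Cd7*.

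Macrophages and other cells also make galectins. Although the negative selection before culture removes such cells, their markers were examined in each library. The 8 markers of CD4 T cells summed to 3138, 3370 and 2953 CPM under the scrambled ASO label and 2503, 2647 and 2780 CPM under the *Pgam* ASO label, with *Cd4* the most abundant, and 2 of them, *Cd28* and *Trac*, were called lower. The 11 markers of macrophages and monocytes, rich sources of galectin-3 and galectin-9, summed to 8.22, 9.02 and 8.55 CPM against 6.21, 5.97 and 7.63 CPM. *Cd68* was the most abundant of these, 3 were tested and 0 called, and 7 of the 11 (*C1qa*, *C1qb*, *C1qc*, *Mrc1*, *Csf1r*, *Cd14* and *Fcgr1*) had at most 7 counts in any library. *Adgre1* was counted 9, 9 and 8 times against 6, 7 and 13 times, and *Itgam* 16, 27 and 0 times against 10, 1 and 5 times. *Cd68* was counted 91, 98 and 103 times against 54, 54 and 75 times (adjusted p = 0.0933 in edgeR) and *Lyz2* 22, 25 and 14 times against 22, 23 and 27 times (adjusted p = 0.481 in edgeR).

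The 6 dendritic cell markers summed to 7.03, 6.97 and 7.87 against 6.89, 5.45 and 4.20 CPM, led by *Zbtb46*, with *Siglech* and *Clec9a* at 0 and 0 of 1 tested called. The 6 B cell markers, led by *Cd79a*, summed to 9.45, 11.8 and 6.69 against 10.6, 9.11 and 8.28 CPM, with 0 of 5 tested called. The 5 erythroid markers, led by *Alas2* in the mean over libraries but not in each, summed to at most 2.70 CPM in any library. *Hba-a2* was at 0, and 0 of 2 tested were called. The 6 mast cell and basophil markers, led by *Cpa3*, summed to 2.70, 2.32 and 2.60 against 5.40, 6.35 and 4.20 CPM, with 0 of 2 tested called. Of 2 CD8 T cell markers, *Cd8a* was called higher, and their sums were 11.3, 13.5 and 10.8 against 14.6, 10.9 and 15.7 CPM, with *Cd8b1* the more abundant. Of 4 NK cell markers, *Eomes*, which T cells also express, was called lower and made up nearly all of sums of 52.7, 32.7 and 55.1 against 28.4, 27.1 and 24.4 CPM, while *Klrb1c* was at 0. The part of these cell types in the galectin values was not tested.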

How the data were processed

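RNA of unsorted murine CD4 cells was sequenced in 6 libraries, 3 for each ASO label. Values were estimated counts by Ensembl gene, which the authors deposited in 1 table, made with Kallisto and, per the submitters' processing notes, GRCm38, already in whole numbers and without normalization; the Kallisto version, annotation, strand setting and summing over transcripts are not given in the sources used here. Of 56748 genes, 52073 had a symbol in the gene name table. Other assays of the study were not analysed here. The members and lists were chosen with earlier results of these data known.

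The analysis used edgeR 4.0.16 in R 4.3.3, with filterByExpr defaults, TMM scaling, and the robust two-sided quasi-likelihood test across all genes, adjusted by Benjamini-Hochberg and called under 0.05. Scaling factors ran from 0.9721 to 1.029. The procedure was tested on simulated data. Depth limits precision for genes with few counts, and a floor of 3 counts per library, which covers counting error only, was taken as the least that can be seen. Pairs of libraries differed by a chi-square per degree of freedom of at least 7.4, so none was a duplicate. Genes named were the members, the targeted genes, up to 3 called genes per direction from each list by size of log2 fold change, and the 3 genes most like each member by Pearson's r of log2 CPM (prior count 2). Other galectins that were not called, *Heatr1* and the cell type markers were named outside this rule, after their values were seen. Coordinates and transcript lengths are from GENCODE M21 on GRCm38, and promoters from RefSeq, GRCm38.p6. Alternatives were DESeq2 1.42.0, limma-voom (limma 3.58.1), RLE factors, library size alone, no filter on low counts (all genes with a count), a minimum of 10 counts throughout, ribosomal and mitochondrial genes left out, replicate block, each library left out, an adjusted p under 0.01, and the longest transcript for levels per kilobase.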

Additional observations from a re-analysis of the deposited data

How the results depend on the processing

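The log2 fold changes of *Lgals1*, *Lgals3*, *Lgals3bp*, *Lgals8* and *Lgals9* kept their direction under all 14 alternatives. *Lgals3* and *Lgals3bp* also kept an adjusted p under 0.05 in each, and with 1 library left out they ran from -0.98 to -0.84 and from 0.67 to 0.69. *Lgals1* and *Lgals9* kept the call under the 7 tools, scalings and filters, with log2 fold changes from 0.43 to 0.47 and from 0.29 to 0.34. With 1 library left out, *Lgals1* ran from 0.35 to 0.58, *Lgals9* from 0.27 to 0.38 and *Lgals8* from -1.06 to -0.64. *Lgals8* passed the threshold with DESeq2 (-0.86, adjusted p = 0.00274), limma-voom (-0.89, 0.0355), RLE factors (-0.86, 0.0495), no filter (-0.85, 6.8e-08), at least 10 counts in every library (-0.88, 0.0486) and ribosomal and mitochondrial genes left out (-0.86, 0.0492), and its adjusted p over all alternatives ran up to 0.155. With no filter, 28512 genes were tested, and *Lgals1* likewise had its lowest adjusted p there (4.41e-05 in edgeR). The cause of these differences between settings was not tested.

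Genes called over the whole table numbered 2565, and 453 at an adjusted p under 0.01, where 2 members were called. With 1 library left out the counts ran from 391 to 3484 genes and from 2 to 5 members. With the longest coding transcript, levels under the scrambled ASO and *Pgam* ASO labels were 65.8 and 35.0 CPM per kilobase for *Lgals3* and 50.8 and 81.3 for *Lgals3bp*. Among 42 other named genes, 467 of 584 values under an alternative kept their direction and side of the threshold, 110 lost the call, 7 gained it and 0 reversed.

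Nothing says that equal replicate numbers share an animal. Deviations from the group mean correlated across genes, which are not independent replicates, at a mean r of -0.07 for equally numbered libraries. For unequally numbered ones the mean r was 0.04, from -0.25 to 0.28. Deviations within a label sum to 0, which ties these means to each other, so they cannot decide whether libraries were paired. With replicate number as a block, 1235 genes and 2 members were called. *Lgals1* (0.47, adjusted p = 0.0679) and *Lgals9* (0.33, adjusted p = 0.0674) were then not called, in a fit with fewer residual degrees of freedom.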
